A study of Mus musculus with 30 samples.

Results

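Poly(A) RNA of primary mouse tail-tendon fibroblasts was sequenced after treatment with Y27632 at 30 µM (3 libraries) or with its solvent DMSO (3 libraries), 6 of the 30 libraries in the series. These 6 were chosen by their treatment labels alone, and a gene was kept when its normalised counts averaged 10 or more over them, which left 14833 of 35972 genes. Both groups were wildtype cells grown in 10% serum and treated in medium with 0.1% serum. The labels give neither the length of treatment nor the age of the mice, and do not say whether the libraries of a group came from separate cultures or animals, so p-values here measure the spread between these libraries, which may be technical. From the same kind of cells, 3 libraries treated with blebbistatin at 10 µM were used for comparison. By its title, the study is about mechanical control of matrix genes through the co-activators Yap and Taz.

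Y27632 blocks the kinases Rock1 and Rock2, which raise the contractile force of fibroblasts by phosphorylating the myosin light chain and its phosphatase and by slowing actin turnover. When actin filaments assemble, the MRTF co-activators (genes Mkl1 and Mkl2) are freed to join SRF at contractile genes, and Yap and Taz join TEAD factors. Tendon fibroblasts live under load and make the collagen fibrils and small proteoglycans of the tendon. Blebbistatin acts further down, on the myosin motor itself.

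Library depth was 23375386 to 27380884 reads in genes with DMSO and 27019991 to 37061737 with Y27632. Each pair of replicates differed by more than read sampling, with a chi-square per degree of freedom of 2.63 to 5.14, so none looked like a repeat deposit of another, which does not show that the cultures were separate. The first principal component of the tested genes held 55.5% of the variance and the second 12.5%. The labelled cell type was borne out by fibroblast markers: all 11 were tested, and their summed normalised count was 1074526 to 1162282 in every library. Markers of endothelium, skeletal muscle, epidermis, cartilage, bone and Schwann cells or neurons summed to at most 3372 in any library. Markers of smooth muscle and pericytes summed to 6742 to 6959 with DMSO and 5121 to 5737 with Y27632, of which Acta2, also a gene of contractile fibroblasts, was the largest part in every DMSO library. Of 7 tested, 2 fell (Acta2 and Cnn1) and 2 rose (Cspg4 and Mcam, the latter not called without Y27632 replicate 1). Markers of fat summed to 6635 to 6878 against 8675 to 10050, nearly all from the lipase gene Lpl (6353 to 6555 against 8474 to 9806), while Adipoq and Plin1 were at most 1.0 and Cidec at 0. Of 3 fat markers tested, 2 rose and 1 fell, and only 1 rose without DMSO replicate 1. The one that fell was Fabp4, at 270, 295 and 312 with DMSO and 218, 182 and 188 with Y27632 (log2 change -0.58). The part of these markers' cells in the contractile and lipid results was not tested. Macrophage-type markers were present, and their values are given with the lysosomal and inflammatory genes.

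Y27632 moved many genes by small amounts and a few programs by large ones. Of the 14833 genes, 5328 were called in limma at a Benjamini-Hochberg adjusted p under 0.05, which is 35.9%. They split evenly, with 2688 higher (18.1%) and 2640 lower (17.8%) than with DMSO. The median log2 change of all tested genes was 0.00, called genes had a median absolute change of 0.27, and 76.8% of them changed by less than 0.5. Beyond that size lay 587 genes that rose and 647 that fell. Log2 changes are of the normalised count plus 1, and the shares of 18.1% and 17.8% are the background against which the counts of each gene list are to be read.

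Lists of genes by pathway show where the larger changes lay. Genes of the immediate early response and of ERK feedback rose, and so, by less, did many cAMP response genes, inflammatory cytokines and lysosomal genes, while targets of ATF4, sterol and fatty acid synthesis, contractile genes and ER chaperones fell. Ribosomal protein genes rose together by a small amount. Genes of mitosis, oxidative phosphorylation and chromatin had medians near 0.

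**Figure D1:**
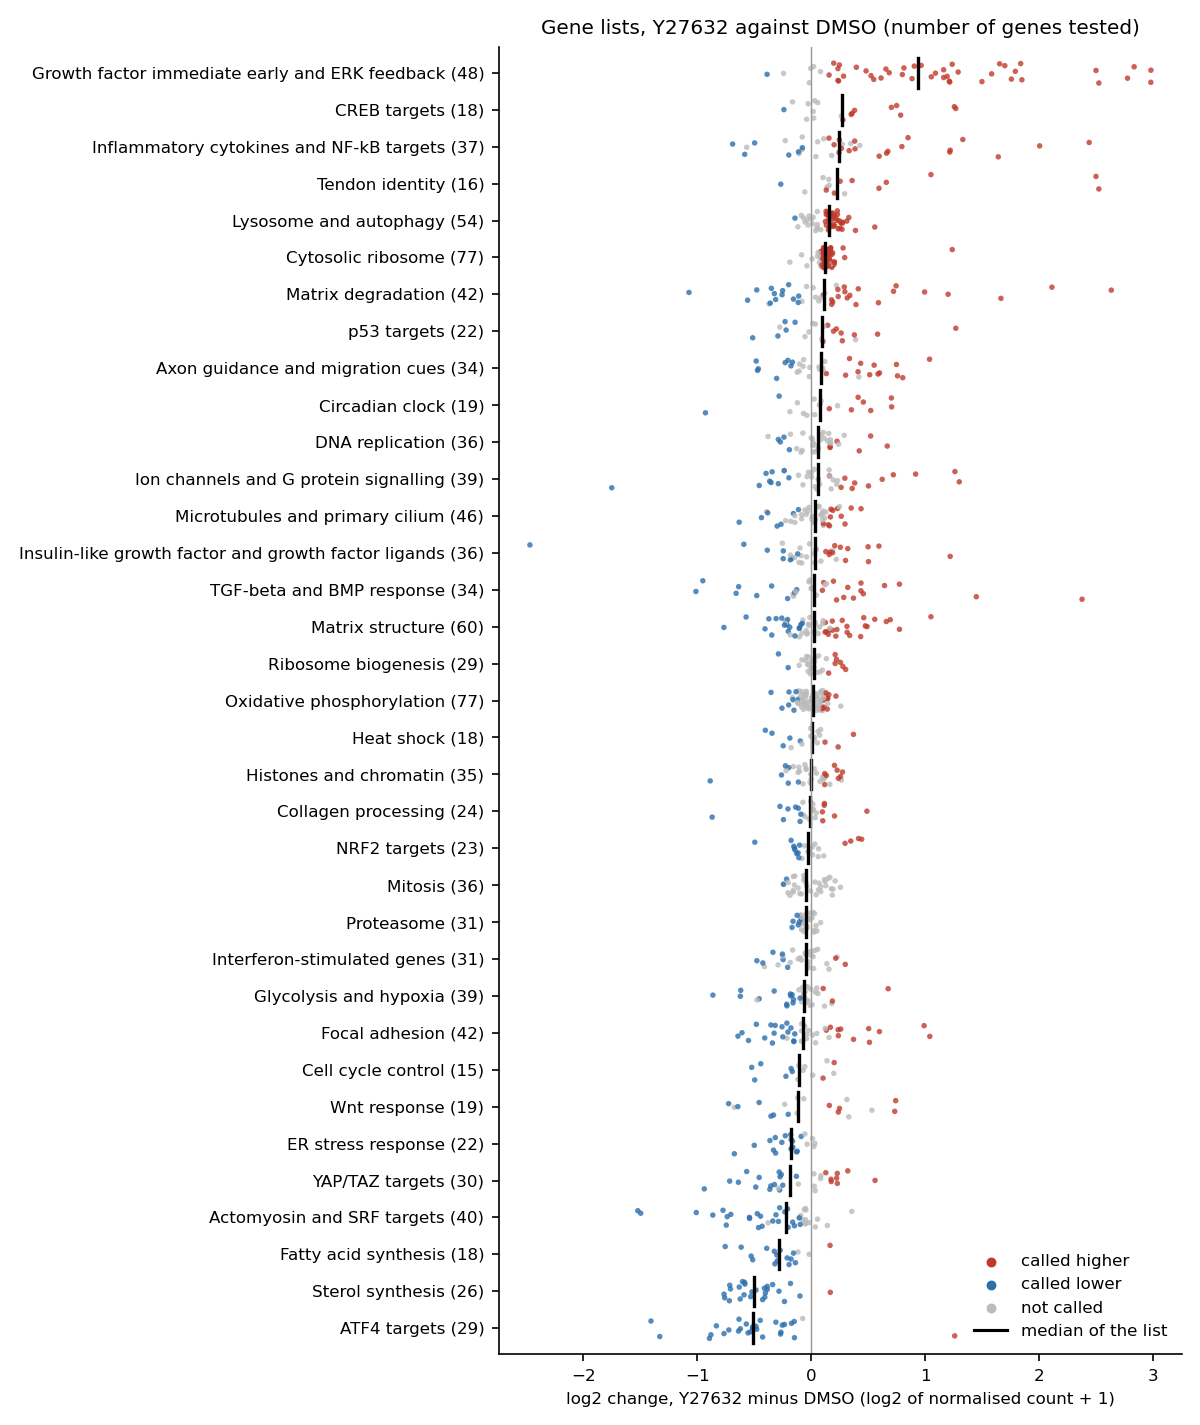
Log2 change of each tested gene, Y27632 minus DMSO (horizontal axis), for the gene lists described here (vertical axis, with the number of genes tested), ordered by the list median (black bar). Red points were called higher, blue points lower and grey points not called. The immediate early and ERK feedback list has its median at 0.93 and the ATF4 list at -0.51, while most other lists straddle 0.

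The contractile machinery fell. Of 48 genes listed as actomyosin components and SRF targets, 40 were tested, 25 fell and 0 rose, with a median log2 change of -0.22. By role, 3 of 5 actins fell, as did 4 of 9 myosin chains and regulators, 15 of 20 thin-filament proteins and crosslinkers, and 3 of 6 genes for SRF and its partners. Myl9, the regulatory light chain that Rock-dependent signalling phosphorylates, had normalised counts of 764, 776 and 800 with DMSO and 262, 275 and 291 with Y27632. Every Y27632 library lay far below every DMSO library, with a log2 change of -1.50 (SE 0.06, adjusted p = 3.33e-09 in limma). Acta2, the smooth muscle actin of contractile fibroblasts, measured 4208, 4163 and 4491 against 2488, 2495 and 2531. The groups again did not overlap, and the log2 change was -0.77 (SE 0.04, adjusted p = 6.13e-09 in limma). The cytoplasmic actins fell too, Actg1 by 0.86 and Actb by 0.46 on the log2 scale. Cnn2, a calponin that binds actin filaments, measured 7530, 7689 and 8024 against 3671, 3933 and 3952, a log2 change of -1.01 (SE 0.04). Fhl2, a LIM-domain SRF target, fell by 0.74, the tropomyosins Tpm1 and Tpm4 by 0.71 and 0.54, and the non-muscle myosin heavy chain Myh9 by 0.45. The groups did not overlap for any of these genes.

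The transcription factors above these genes changed less. Srf itself measured 1059, 1006 and 1060 with DMSO and 901, 862 and 954 with Y27632, a log2 change of -0.20 (SE 0.05, adjusted p = 0.00658 in limma). The MRTF gene Mkl1 fell by 0.31 (SE 0.04) with no overlap between the groups. Its relative Mkl2 was not called, at -0.02 (SE 0.06). Lmod1, a leiomodin that nucleates actin filaments, had the lowest value of the list at -1.52, from a mean of 36.0 ± 6.90 (SD, n = 3) normalised counts with DMSO to 12.2 ± 4.29 (SD, n = 3) with Y27632. It lies below the level set for naming genes and was singled out after its values were seen. Of the SRF partners Elk3 had a change of -0.10, and that call was lost in each of the 6 fits that left out 1 library.

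Promoters of 2 contractile genes that fell and of Srf are shown because they hold the element by which SRF binds its targets. The windows are RefSeq promoters of the build GRCm38.p6, from 250 bases before to 50 bases after a transcription start, and 11026 of the 14833 tested genes matched by symbol. The CArG box, the element that SRF binds, was searched on both strands. It was found in the promoters of 9 of the 34 tested contractile genes with a window (26.5%) and of 7 of the 22 that fell (31.8%), against 171 of 11026 tested genes (1.55%). Most contractile genes that fell thus had no match in this window, and since the list was drawn up to hold SRF targets, a higher share is built into it. Capitals mark each match, and positions count from the start with -1 as the base before it. The Myl9 window (chr2:156775214-156775513, plus strand) has a match at position -161, and that of Cnn2 (chr10:79988350-79988649, plus strand) at -56. The Srf window (chr17:46556113-46556412, minus strand) has 2 matches, the first at -82. A match is a description of letters and not of binding.
Myl9: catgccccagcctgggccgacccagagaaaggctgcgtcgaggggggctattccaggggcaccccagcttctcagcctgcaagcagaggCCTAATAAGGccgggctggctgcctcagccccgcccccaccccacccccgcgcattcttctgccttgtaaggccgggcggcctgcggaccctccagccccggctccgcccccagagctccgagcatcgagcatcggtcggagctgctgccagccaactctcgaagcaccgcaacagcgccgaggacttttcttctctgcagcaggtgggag
Cnn2: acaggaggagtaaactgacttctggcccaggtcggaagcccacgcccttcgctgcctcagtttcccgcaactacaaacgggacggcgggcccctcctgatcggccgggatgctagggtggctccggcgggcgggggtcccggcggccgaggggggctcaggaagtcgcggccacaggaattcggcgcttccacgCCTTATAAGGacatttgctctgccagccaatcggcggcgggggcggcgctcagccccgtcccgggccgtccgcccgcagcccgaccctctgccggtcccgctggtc
Srf: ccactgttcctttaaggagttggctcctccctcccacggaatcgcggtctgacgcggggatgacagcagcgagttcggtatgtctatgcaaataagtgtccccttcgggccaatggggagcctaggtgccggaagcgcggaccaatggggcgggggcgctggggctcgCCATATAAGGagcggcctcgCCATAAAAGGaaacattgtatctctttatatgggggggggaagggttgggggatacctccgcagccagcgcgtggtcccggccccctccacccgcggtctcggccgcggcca

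Accessible chromatin was measured by ATAC-seq in separate libraries, and the authors' deposited list of sites that differed between Y27632 and DMSO holds 207 sites at a false discovery rate of at most 0.0497. In that deposited list 176 sites (85%) were less accessible with Y27632. In it 7 sites were annotated to 6 contractile genes, and all 7 were less accessible. Coordinates are of mm10, per the submitters' processing notes. By the authors' deposited log2 folds, the Acta2 site at chr19:34265634-34266106, intergenic, stood at -1.29, and the Actb site at chr5:142901854-142902161, intergenic, at -1.42. The authors' deposited value for a site at the promoter of Tagln, the transgelin gene, was -1.78, and its RNA lay under the level for testing, at 8.3, 11.5 and 14.3 normalised counts with DMSO and 1.5, 1.8 and 2.1 with Y27632. The other sites lay at Actn4, where 2 intronic sites had deposited folds of -1.37 and -1.35, at Tpm4 and at Cald1. All of Acta2, Actb, Actn4, Tpm4 and Cald1 also fell in RNA. Thbs1, the gene of the matrix protein thrombospondin 1, had 3 sites in the deposited list, all less accessible, and its RNA fell by 0.41 on the log2 scale (SE 0.05). In the authors' deposited list Rnd3, an atypical small GTPase, had a more accessible site (fold 1.36) while its RNA fell by 0.18, and Dkk2, a Wnt antagonist, had one (fold 1.45) while its RNA rose by 0.74. Group means are all that the list gives, so no replicate spread can be set beside these folds.

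The inhibitor's targets differed from each other. Rock1 had 2756, 2959 and 2771 normalised counts with DMSO and 2723, 2827 and 2803 with Y27632, so the groups overlapped and it was not called (log2 change -0.02, SE 0.04). Rock2 had 22728, 23588 and 22764 against 17842, 17529 and 18160, without overlap, and fell by 0.37 (SE 0.03, adjusted p = 9.04e-07 in limma). Among small GTPases, Rhob, an endosomal protein induced by growth factors, rose by 0.60 and Rnd1, which opposes RhoA, fell by 0.85. Among regulators, the RhoA exchange factor Net1 rose by 0.65, and Arhgap24, a GTPase-activating protein that favours Rac inactivation, fell by 0.72. The Rac and Cdc42 effector kinase Pak1 fell by 0.46.

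Integrins and adhesion plaque proteins gave different counts, a difference that was not tested. Among 16 tested integrin genes 7 rose and 2 fell (median 0.10), whereas among 26 genes for adhesion plaque proteins 4 rose and 15 fell (median -0.15). Itga8, an integrin α chain, measured 162, 174 and 168 with DMSO and 350, 312 and 382 with Y27632. The treated libraries all lay above the controls, and the log2 change was 1.04 (SE 0.09, adjusted p = 1.92e-06 in limma). The collagen-binding chain Itga10 rose by 0.60, Itgb3 of the vitronectin receptor by 0.51 and the laminin-binding Itga7 by 0.50. In the plaque, vinculin (Vcl), which links talin to actin, measured 14274, 14135 and 13778 against 9567, 9343 and 9892, a log2 change of -0.55 (SE 0.03). The talin gene Tln2 fell by 0.61, Lims2, a partner of integrin-linked kinase, by 0.48, and the docking protein Nedd9 by 0.41.

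Targets and partners of Yap and Taz changed unevenly. Of 30 tested genes 8 rose and 15 fell, with a median of -0.19. The count that rose was 5 without Y27632 replicate 3. Yap1 was not called (0.03, SE 0.03), and Wwtr1, which encodes Taz, rose by 0.22 (SE 0.03). The TEAD factors diverged. Tead4 measured 166, 167 and 168 with DMSO and 85.7, 92.1 and 82.8 with Y27632, a fall of 0.94 on the log2 scale (SE 0.11). Tead3 fell by 0.72 and Tead1 by 0.36, and Tead2 rose by 0.23. The commonly used target genes did not move alike. Ctgf measured 3261, 3530 and 3973 against 3628, 2918 and 3407, with overlapping groups and no call (-0.11, SE 0.08). Cyr61, another secreted CCN protein, had a small change of -0.13 (SE 0.04, adjusted p = 0.0372 in limma) with overlapping groups, and that call was lost when any one of DMSO replicates 2 and 3 or Y27632 replicates 1 and 2 was left out. Ankrd1, a nuclear ankyrin-repeat protein, measured 223, 224 and 250 against 163, 148 and 158, a log2 change of -0.57 (SE 0.09). The LIM protein Ajuba fell by 0.64 and the angiomotin-like Amotl2 by 0.49, while the ectonucleotidase Nt5e rose by 0.56.

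The immediate early and ERK feedback genes had the highest median of all the pathway lists. Immediate early genes are transcribed within minutes of growth factor signalling without new protein synthesis, and their products include factors that then switch on feedback inhibitors of ERK. Of 51 genes listed, 48 were tested, 42 rose and 1 fell, with a median log2 change of 0.93. The mean over the list, relative to DMSO, was 1.07, 0.91 and 1.15 in the 3 Y27632 libraries and 0.03, -0.05 and 0.02 in the 3 DMSO libraries.

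**Figure D2:**
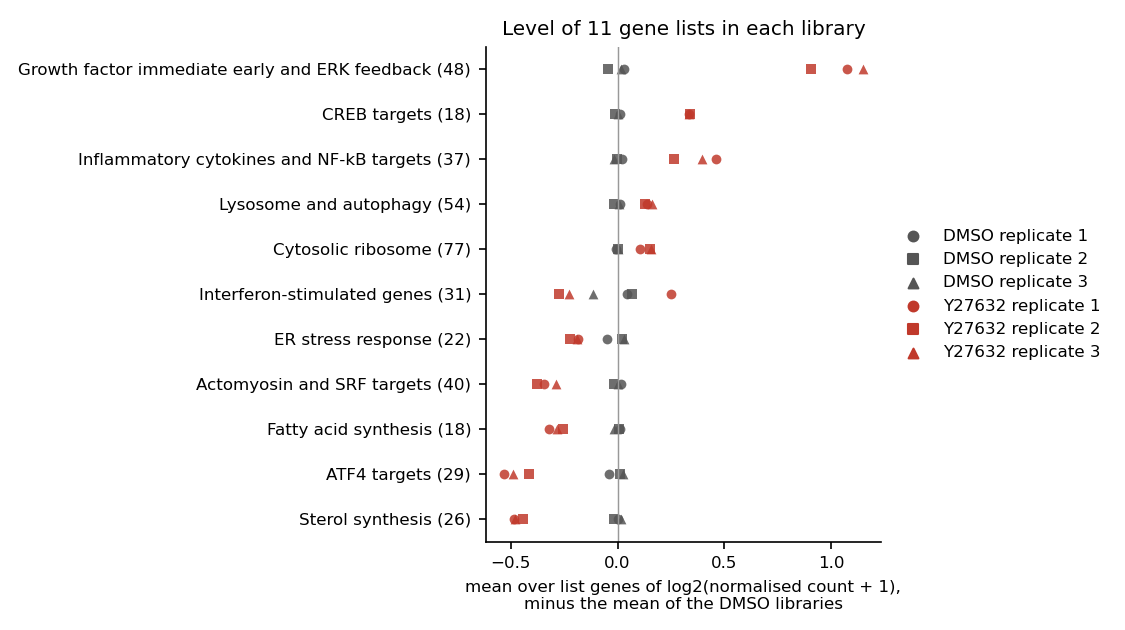
Mean over the tested genes of 11 lists of the log2 normalised count plus 1, relative to the mean of the DMSO libraries (horizontal axis), in each of the 6 libraries (grey, DMSO; red, Y27632; the symbol gives the replicate). The Y27632 libraries of the immediate early list lie at 0.91 to 1.15 and those of the sterol list at -0.49 to -0.44, while in the interferon list Y27632 replicate 1 lies at 0.25 and the other two at -0.28 and -0.23.

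Among immediate early transcription factors 21 of 23 tested rose and 0 fell (median 0.81). Nr4a1, an orphan nuclear receptor, measured 387, 356 and 326 with DMSO and 2550, 2167 and 2951 with Y27632. Its groups were far apart, at a log2 change of 2.83 (SE 0.09, adjusted p = 7.43e-10 in limma). Its relative Nr4a3 measured 45.4, 36.6 and 38.2 against 334, 240 and 414, a log2 change of 2.98 (SE 0.17). Egr1, a zinc-finger factor induced through SRF and ETS factors, measured 1006, 691 and 857 against 4690, 4528 and 5328, a log2 change of 2.52 (SE 0.10). Egr3 rose by 2.77 and Egr2 by 2.50. Fos, a subunit of AP-1, measured 122, 102 and 111 against 373, 322 and 398, a log2 change of 1.70 (SE 0.10). Each of these genes was without overlap between the groups. The members not called among the factors were Fosb at -0.24 (SE 0.16) and Jund at 0.08.

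The feedback inhibitors rose with them: 15 of 16 were called higher and 0 lower (median 1.01). Errfi1, an inhibitor of the EGF receptor, measured 1186, 987 and 1056 with DMSO and 9262, 6674 and 9822 with Y27632, a log2 change of 2.98 (SE 0.11, adjusted p = 1.76e-09 in limma). It shared the top of the whole table with Nr4a3. Spry4, a Sprouty inhibitor of Ras signalling, measured 318, 337 and 352 against 1245, 1064 and 1333, a log2 change of 1.85 (SE 0.08). Its relative Spry2 rose by 1.29. Dusp6, a phosphatase of ERK, measured 216, 246 and 234 against 672, 538 and 779, a log2 change of 1.50 (SE 0.11). In the Y27632 group replicate 2 was the lowest of the 3 for each of Errfi1, Spry4, Spry2 and Dusp6, and it still lay above every DMSO library. Of 9 ETS factors and ligands 6 rose and 1 fell (median 0.28). Among them the EGF receptor ligands Hbegf and Ereg rose by 1.79 and 1.75, the ERK-responsive Phlda1 by 1.84 and the cytokine Lif by 1.21. Vgf, a neurosecretory protein gene, was the one that fell, by 0.39.

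**Figure D3:**
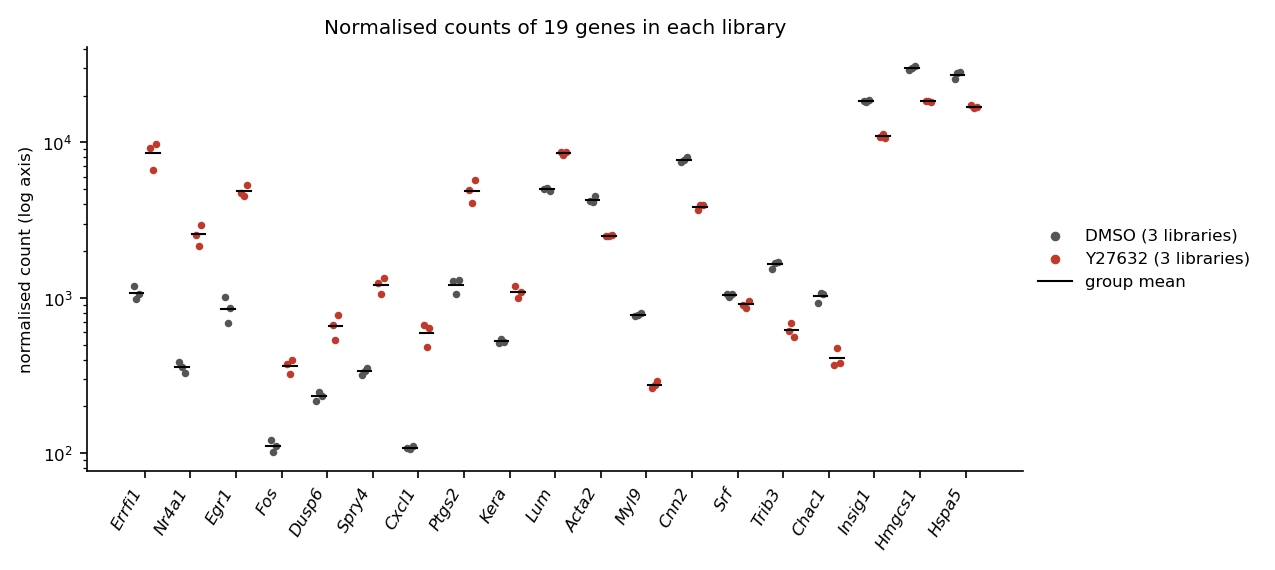
Normalised counts (log axis) of 19 genes named in the text in each of the 3 DMSO libraries (grey) and the 3 Y27632 libraries (red), with black bars at the group means. Points of the 2 groups do not overlap for any of the 19 genes, and the gap is widest for Errfi1, Nr4a1 and Egr1 on the higher side and for Myl9 and Trib3 on the lower side.

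The same element search was run on the promoters of this list, since Egr1 and its relatives are SRF targets as well as ERK targets. The CArG box was found in 3 of 34 tested genes with a window (8.82%), against 1.55% of all tested genes. These were Egr2, Dusp5 and Zfp36, all of which rose. Only 34 of the 48 tested genes had a window, and whether Egr1 was among them is not given here. Elements outside the window were not searched, so a gene without a match, such as Egr1 or Fos, may still carry one. The cAMP response element TGACGTCA was in 4 of the 34 (11.8%), all of them genes that rose, against 377 of 11026 tested genes (3.42%). Of all 34 genes with a window 30 rose, so neither element sets apart the genes that rose. Some genes that fell (Myl9, Cnn2, Srf) and some that rose with Y27632 (Egr2, Dusp5, Zfp36) thus both carry a CArG box near their start. Egr2 has several listed starts, and the window shown here is chr10:67537619-67537918 on the plus strand, with the match at position -72.
Egr2: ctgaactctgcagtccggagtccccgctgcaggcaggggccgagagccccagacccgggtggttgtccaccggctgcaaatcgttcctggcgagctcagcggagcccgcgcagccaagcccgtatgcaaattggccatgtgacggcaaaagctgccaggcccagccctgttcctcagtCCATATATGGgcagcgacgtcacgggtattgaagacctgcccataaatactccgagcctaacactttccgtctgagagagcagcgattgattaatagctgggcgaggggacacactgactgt

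Genes that respond to cAMP through CREB rose in part. Of 18 tested, 9 rose and 1 fell, with a median of 0.27. Btg2, an antiproliferative gene that also answers to p53, measured 609, 612 and 708 with DMSO and 1489, 1484 and 1668 with Y27632, a log2 change of 1.27 (SE 0.07). Dio2, the deiodinase that activates thyroid hormone, rose by 1.25, the kinase gene Sik1 by 0.78, the small GTPase gene Gem by 0.75 and the clock gene Per1 by 0.70. The one that fell was Cited2, a CBP-binding regulator, by 0.24. The same element TGACGTCA was in the promoters of 2 of 13 genes of the list with a window (15.4%), Btg2 and Dio2, against 377 of 11026 tested genes (3.42%). Since the list was drawn up to hold CREB targets, a higher share is built into it.

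Many inflammatory genes rose. Of 40 inflammatory genes listed 37 were tested, 19 rose and 6 fell, with a median of 0.25. Among 19 cytokines and chemokines 11 rose and 2 fell (median 0.60), and among 18 other targets 8 rose and 4 fell (median 0.11). The difference between these roles was not tested. Cxcl1, a neutrophil attractant, measured 107, 106 and 111 with DMSO and 669, 483 and 638 with Y27632. The controls were within a few counts of each other, and the log2 change was 2.44 (SE 0.11, adjusted p = 5.75e-09 in limma). Ptgs2, the inducible cyclooxygenase, measured 1277, 1059 and 1304 against 4920, 4051 and 5701, a log2 change of 2.0 (SE 0.10). The prostaglandin E receptor gene Ptger4 rose with it, by 1.26. Il6 rose by 1.64 (SE 0.32) from a low level, with 8.26, 20.6 and 16.7 normalised counts against 54.1, 32.8 and 56.6. The interleukin-1 receptor antagonist Il1rn rose by 1.33, and the chemokines Cxcl5, Cxcl12 and Ccl2 by 0.85, 0.66 and 0.60. In the other direction, the pentraxin Ptx3 fell by 0.69 and the adhesion molecule Icam1 by 0.50. Tnfaip3, a brake on NF-kB, rose by 0.25 while its single site in the authors' deposited ATAC list was less accessible (fold -1.17).

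Genes that mark macrophages were also higher with Y27632. Of 13 immune markers 9 were tested and 8 rose, and Cd3e and Ms4a1, which mark lymphocytes, were at 0 in all 6 libraries. The summed normalised count of the 13 was 6906 to 7585 with DMSO and 9881 to 11243 with Y27632, so the groups did not overlap. Lyz2, the lysozyme of macrophages and neutrophils, measured 4925, 4490 and 4696 against 7513, 6672 and 7632, a log2 change of 0.63 (SE 0.05). Itgam rose by 0.66, Tyrobp by 0.60 and Adgre1 by 0.57, and Cd14 was not called (0.03, SE 0.07). In bulk RNA, more cells of a type and more RNA per cell cannot be told apart, and the part of these cells in the cytokine and lysosomal results was not tested.

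Lysosomal genes rose by small amounts. Of 35 tested 31 rose and 1 fell, with a median of 0.19, and of 20 autophagy genes 6 rose and 0 fell (median 0.03). Ctss, a cathepsin abundant in macrophages, measured 1586, 1436 and 1440 with DMSO and 2274, 2035 and 2257 with Y27632, a log2 change of 0.56 (SE 0.05). This is close to the changes of the macrophage markers, and the part of macrophages in it was not tested. Other members, among them the carboxypeptidase Ctsa (0.31), the α-galactosidase Gla (0.33) and the membrane protein Cln3 (0.39), rose less. In the autophagy group Gabarapl1, which joins the growing autophagosome, rose by 0.25. The one lysosomal gene that fell was Tfe3, a transcription factor of lysosome genes, by 0.14.

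Targets of ATF4 fell. ATF4 is the factor through which cells answer amino acid shortage and ER stress, and its targets make, import and load amino acids. Of 29 tested 27 fell and 1 rose, with a median log2 change of -0.51. The list mean was -0.53, -0.41 and -0.49 in the Y27632 libraries and -0.04, 0.01 and 0.02 in the DMSO libraries. Atf4 itself measured 11307, 11734 and 12336 with DMSO and 6249, 6832 and 5980 with Y27632, a log2 change of -0.89 (SE 0.05, adjusted p = 1.49e-08 in limma). Trib3, a pseudokinase that feeds back on ATF4, measured 1542, 1677 and 1698 against 608, 690 and 561, a log2 change of -1.41 (SE 0.07). Chac1, which breaks down glutathione, measured 925, 1073 and 1064 against 368, 475 and 379, a log2 change of -1.33 (SE 0.09). For these 3 genes every treated library lay below every control. Asns, the asparagine synthetase, and Phgdh, which opens serine synthesis, were chosen after their values were seen as examples of the enzymes and fell by 0.62 and 0.53. In the authors' deposited ATAC list Phgdh had 1 site, less accessible with Y27632 (fold -1.23). The other members were Cebpb and Vldlr. Cebpb, a partner of ATF4 and itself an immediate early gene in many cells, rose by 1.26 (SE 0.08). The lipoprotein receptor Vldlr was not called (-0.08, SE 0.05).

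The composite element of ATF4 and C/EBP factors, searched as TGATGNAA on both strands, was found in the promoters of 8 of 23 genes of the ATF4 list with a window (34.8%), against 315 of 11026 tested genes (2.86%). Of these 8 genes 7 fell, and the other was Vldlr. Of all 23 genes with a window 21 fell, so the matches do not set apart the genes that fell. Since the list was drawn up to hold ATF4 targets, a higher share of matches is built into it. The windows of Chac1 (chr2:119350992-119351291, plus strand, match at position -193) and Trib3 (chr2:152344011-152344310, minus strand, match at position 15) are shown because these were the members that fell most.
Chac1: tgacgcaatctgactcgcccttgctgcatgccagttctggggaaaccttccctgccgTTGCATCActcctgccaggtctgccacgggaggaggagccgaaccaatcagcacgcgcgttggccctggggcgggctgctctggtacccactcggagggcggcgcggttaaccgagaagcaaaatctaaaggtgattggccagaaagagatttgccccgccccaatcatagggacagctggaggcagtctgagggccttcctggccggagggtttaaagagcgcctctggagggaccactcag
Trib3: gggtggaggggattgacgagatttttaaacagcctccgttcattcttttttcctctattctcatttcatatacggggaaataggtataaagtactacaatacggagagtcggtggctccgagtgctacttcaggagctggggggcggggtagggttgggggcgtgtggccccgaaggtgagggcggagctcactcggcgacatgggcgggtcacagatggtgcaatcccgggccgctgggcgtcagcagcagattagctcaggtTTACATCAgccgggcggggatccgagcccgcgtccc

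Chaperones of the endoplasmic reticulum fell too. Of 22 tested genes of the ER stress response 17 fell and 0 rose, with a median of -0.17. Hspa5, the chaperone BiP, measured 25408, 27753 and 28246 with DMSO and 17428, 16702 and 16815 with Y27632, a log2 change of -0.67 (SE 0.04, adjusted p = 4.41e-08 in limma). Its helper Hyou1 fell by 0.50, the secreted Manf by 0.36 and Sdf2l1 by 0.33. The heat shock genes of the cytosol gave no such pattern, with 3 of 18 higher and 5 lower (median 0.01), and the constitutive chaperone Hspa8 fell by 0.40. Without Y27632 replicate 1 the number of heat shock genes lower was 3.

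Sterol synthesis fell as a whole pathway. Cells low in sterol activate SREBP2, which induces the enzymes from acetyl-CoA to cholesterol. Of 26 tested genes 25 fell and 1 rose. The groups did not overlap for any of the 26, against 48.1% of all tested genes without overlap. The median was -0.50, and the list mean was -0.49, -0.44 and -0.48 in the Y27632 libraries. Hmgcs1, the synthase that feeds the pathway, measured 29314, 29926 and 30880 with DMSO and 18461, 18503 and 18153 with Y27632, a log2 change of -0.71 (SE 0.03, adjusted p = 3.55e-09 in limma). Insig1, which holds SREBP in the endoplasmic reticulum, measured 18596, 18211 and 18857 against 10778, 11248 and 10731, a log2 change of -0.77 (SE 0.03). The later enzymes Lss, Msmo1 and Cyp51 fell by 0.76, 0.72 and 0.72. The one that rose was Scap, the escort of SREBP, by 0.17 (SE 0.04). The sterol element searched as TCACNCCAC on both strands was in 1 of 18 promoters of the list (5.56%), against 1.39% of tested genes, and no sequence is shown for it.

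Fatty acid synthesis followed with smaller changes. Of 20 genes listed 18 were tested, 15 fell and 1 rose, with a median of -0.29. Acly, which makes cytosolic acetyl-CoA, measured 50497, 48282 and 48952 with DMSO and 31509, 32718 and 32221 with Y27632, a log2 change of -0.62 (SE 0.03). Fasn, the synthase, fell by 0.30 (SE 0.05), the acyl-CoA synthetase Acsl1 by 0.53 and the carboxylase Acacb by 0.51. Elovl5, an elongase of polyunsaturated fatty acids, was the gene that rose, by 0.16. In glycolysis and hypoxia 3 of 39 genes rose and 13 fell (median -0.07). Hexokinase 2 (Hk2) rose by 0.67, the glucose transporter Slc2a1 was not called (0.12, SE 0.06), and Ddit4, Epas1 and Vegfa fell by 0.62, 0.62 and 0.18. The count of glycolysis and hypoxia genes that rose was 5 without DMSO replicate 3.

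Genes of the cytosolic ribosome rose together by a small step. Of 77 tested 65 rose and 0 fell, with a median log2 change of 0.12, and the list mean was 0.11, 0.15 and 0.16 in the Y27632 libraries. With DMSO replicate 3 left out, 1 gene was called lower, and with Y27632 replicate 3 left out 47 were called higher. Rps27, of the small subunit, measured 6536, 6309 and 6336 with DMSO and 7798, 7900 and 7795 with Y27632, a log2 change of 0.29 (SE 0.03, adjusted p = 6.43e-06 in limma). Rpl31 of the large subunit measured 10498, 10350 and 10408 against 11963, 11976 and 11959, a log2 change of 0.20 (SE 0.03). The value of Rpl17, 1.24 (SE 0.26), is uncertain: its libraries ranged from 882 to 1794 within DMSO and from 1907 to 4108 within Y27632. Ribosomal protein genes have many near-identical processed copies, and how shared reads were counted is not given in the sources used here. Nucleolar factors of ribosome assembly moved less, with 7 of 29 higher and 2 lower (median 0.02), and nuclear-encoded subunits of oxidative phosphorylation gave 9 of 77 higher and 8 lower (median 0.02). These small counts rested in part on single libraries. For oxidative phosphorylation 3 genes were higher without DMSO replicate 2 or Y27632 replicate 3 and 4 without Y27632 replicate 2, and 5 were lower without Y27632 replicate 1. For ribosome assembly 1 gene was lower without DMSO replicate 2 or 3 or Y27632 replicate 2.

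The matrix showed no common direction. Of 60 structural genes 22 rose and 18 fell, with a median of 0.02. Of 13 fibrillar and fibril-associated collagens 4 rose and 4 fell, with a median of -0.02. Col5a1 and Col5a2 were lower without overlap, at log2 changes of -0.21 and -0.19. Col5a2 also had a less accessible site in the authors' deposited ATAC list (fold -1.84). Col1a1 measured 305996, 301482 and 279645 with DMSO and 261754, 279584 and 283827 with Y27632, with overlapping groups and no call (-0.10, SE 0.05). Col1a2 was not called either (0.03, SE 0.04), and Col3a1 rose by 0.12 (SE 0.04, adjusted p = 0.022 in limma), which no longer passed when replicate 3 of either group was left out. The small leucine-rich proteoglycans, which bind collagen fibrils and set their diameter, moved more, with 6 of 9 higher and 2 lower (median 0.31). Kera measured 515, 544 and 517 against 1182, 993 and 1096, a log2 change of 1.05 (SE 0.06, adjusted p = 6.09e-08 in limma). Lum measured 4998, 5122 and 4846 against 8615, 8283 and 8678, a log2 change of 0.77 (SE 0.03). Aspn rose by 0.69, Fmod by 0.66 and Dcn by 0.31, whereas Podn fell by 0.77. Of the glycoproteins, Comp rose by 0.56, Tnxb by 0.47 and Thbs2 by 0.43, and the collagens Col6a3 and Col5a3 rose by 0.46 and fell by 0.35. For collagen processing, 6 of 24 rose and 8 fell; these counts were 2 without Y27632 replicate 3 and 5 without DMSO replicate 2. The lysyl oxidases Loxl4 and Lox, which crosslink collagen, fell by 0.87 and 0.28.

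Matrix-degrading enzymes included some of the steepest rises. Of 42 tested genes 20 rose and 13 fell, with a median of 0.11. The metalloproteinases among them went both ways: of 29 tested 14 rose and 8 fell, with log2 changes from -1.07 to 2.63. Mmp13, a collagenase, measured 552, 499 and 535 with DMSO and 3422, 3130 and 3286 with Y27632, a log2 change of 2.63 (SE 0.05, adjusted p = 2.76e-12 in limma). Mmp10, a stromelysin, measured 171, 145 and 202 against 813, 692 and 728, a log2 change of 2.11 (SE 0.11). The aggrecanase-type Adamts15 rose by 1.66 and the disintegrin Adam12 by 1.20. Plau, the urokinase that activates plasminogen, rose by 0.74 and the cathepsin Ctsk by 0.41. Of 6 inhibitors 1 rose and 4 fell: Timp2 rose by 0.29, and Timp1 and Timp3 fell by 0.31 and 0.26.

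Several tendon genes rose. Of 16 tested 9 rose and 1 fell, with a median of 0.23, and 6 of those that rose (Egr1, Egr2, Kera, Fmod, Thbs4 and Pdgfra) are also members of other lists used here. The tendon factor Scx measured 65.0, 75.6 and 58.5 with DMSO and 74.4, 83.2 and 86.0 with Y27632, with overlapping groups and no call (0.29, SE 0.15). Mkx, a homeobox factor of tendon, rose by 0.25 (SE 0.04). The tenomodulin gene Tnmd was not called (0.15, SE 0.06). Pdgfra, the PDGF receptor of fibroblasts, rose by 0.59.

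Growth factor and morphogen genes moved singly rather than as lists. In TGF-beta and BMP signalling 14 of 34 rose and 9 fell (median 0.03). The BMP antagonist Grem1 measured 683, 574 and 700 with DMSO and 1705, 1718 and 1904 with Y27632, a log2 change of 1.45 (SE 0.07, adjusted p = 9.15e-09 in limma). The ligands Gdf6, Bmp6 and Bmp4 fell by 1.01, 0.95 and 0.66, and Bmp2 rose by 0.64. In the authors' deposited ATAC list Bmp4 had a less accessible site (fold -1.49). The inhibitory Smad6 fell by 0.64, Smad7 was not called (-0.16, SE 0.06), and the BMP target Id1 rose by 0.44. In Wnt signalling 5 of 19 rose and 6 fell, with 3 higher when Y27632 replicate 3 was left out. Wnt9a and Wisp1 fell by 0.73 and 0.64. Among insulin-like and other growth factor genes 12 of 36 rose and 8 fell. Igfbp5, a binding protein of insulin-like growth factors, measured 18221, 17885 and 16009 against 40519, 38870 and 41689, a log2 change of 1.22 (SE 0.05). The EGF receptor gene Egfr and the ligand Fgf2 each rose by 0.50. In the other direction the lowest log2 change of this list was -2.47. Bdnf was among the genes that fell, and it had a less accessible site in the authors' deposited ATAC list (fold -1.48). Of 34 axon guidance and migration genes 13 rose and 8 fell, with log2 changes down to -0.48. Those that rose most were Sema7a at 1.04, Robo2 at 0.76, Slit2 at 0.60 and Epha2 at 0.58, among genes averaging at least 100.

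Genes of mitosis and replication were seldom called, and those of cell cycle control more often. Of 36 mitotic genes 0 rose and 2 fell (median -0.04), and of 36 replication genes 6 rose and 4 fell (median 0.06). The mitotic counts rested on single control libraries: 9 rose without DMSO replicate 1 and 7 fell without DMSO replicate 2. Of the replication genes 2 fell without replicate 3 of either group. Mki67 measured 1704, 1348 and 1233 with DMSO and 1089, 1414 and 1246 with Y27632, and neither it nor Mcm2 was called (-0.19, SE 0.11, and -0.09, SE 0.08). Of 15 genes of cell cycle control 2 rose and 6 fell (median -0.11), and 1 rose without DMSO replicate 1 or Y27632 replicate 2 or 3. The D-type cyclins, which start the cycle in answer to growth factors, fell: Ccnd1 measured 5727, 5727 and 5969 against 4004, 4275 and 4073 (-0.50, SE 0.03), and Ccnd2 fell by 0.52. The inhibitors of their kinases Cdkn2d and Cdkn2c fell too, by 0.44 and 0.22. The cyclin kinase inhibitor gene Cdkn1a changed by 0.10 (SE 0.03, adjusted p = 0.0341 in limma), and 4 of the 6 fits that left out a library lost that call. Of 22 targets of p53 9 rose and 5 fell. Of 35 chromatin genes 8 rose and 6 fell, counts that became 5 without Y27632 replicate 3 and 10 without DMSO replicate 3.

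Interferon-stimulated genes showed a split between libraries. Of 31 tested 2 rose and 6 fell (median -0.05). Relative to DMSO the list mean was 0.25 in Y27632 replicate 1 and -0.28 and -0.23 in replicates 2 and 3, so the Y27632 libraries spread on both sides of the controls. Without Y27632 replicate 1 the count that fell was 14, and without DMSO replicate 1 or Y27632 replicate 2 it was 3. Stat2, a transcription factor of interferon signalling, measured 3725, 3620 and 3571 with DMSO and 3133, 2503 and 2275 with Y27632 (-0.48, SE 0.08), and Parp14 fell by 0.34. Ifit3 and B2m rose by 0.30 and 0.21.

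The remaining lists had smaller or mixed counts. NRF2 targets had 4 of 23 higher and 9 lower, with 5 lower when DMSO replicate 1 or Y27632 replicate 1 was left out. Nfe2l2, the NRF2 gene itself, rose by 0.41, the glutathione ligase subunit Gclc by 0.35, and Osgin1 fell by 0.50, while heme oxygenase Hmox1 was not called (-0.08, SE 0.04). Clock genes had 7 of 19 higher and 2 lower, with Hlf up by 0.70 and Ciart down (a log2 change of -0.93). Microtubule and cilium genes had 11 of 46 higher and 7 lower. Of 31 proteasome subunits 0 rose and 6 fell, and 3 fell in each fit without DMSO replicate 2 or 3 or without Y27632 replicate 2 or 3. Ion channel and G protein genes had 11 of 39 higher and 9 lower, from Kcnj2, an inward rectifier that rose by 0.72, to Adra1d, an adrenergic receptor that fell by 1.75.

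Several of the steepest changes lay in genes not named with the lists above. Arc, an immediate early gene best known from neurons, measured 411, 303 and 362 with DMSO and 1897, 1636 and 2240 with Y27632, a log2 change of 2.42 (SE 0.11). The bradykinin receptor Bdkrb2 rose by 2.18, the transcriptional repressor Prdm1 by 2.19 and the neuronal pentraxin Nptx1 by 1.94. On the lower side Siglecg, a sialic acid-binding lectin, measured 313, 325 and 347 against 67.7, 72.6 and 69.2, a log2 change of -2.22 (SE 0.10, adjusted p = 5.00e-09 in limma). It also had a less accessible exonic site in the authors' deposited ATAC list (fold -1.18). The gene 5430403N17Rik fell by 1.55. The stress-inducible genes Gadd45b (-1.31) and Gadd45g (-1.23), the monoacylglycerol lipase Mgll (-1.30), the peptide hormone gene Adm2 (-1.26), the phosphatase gene Dusp14 (-1.23) and the thromboxane receptor Tbxa2r (-1.23) fell as well.

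Blebbistatin served as a second inhibitor of the contractile machinery, at another dose and on another protein. Contractile force is not among the values used here. Y27632 and blebbistatin were compared directly with edgeR's quasi-likelihood test on the whole reads of the 9 libraries. Of 14955 genes 7935 differed at an adjusted p under 0.05 (53.1%), 3917 higher with Y27632 (26.2%) and 4018 lower (26.9%). Changes against DMSO are set side by side below from the same edgeR fit, and both share the 3 DMSO libraries. The inhibitors differ in both target and dose, whose parts in a difference cannot be told apart.

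Growth factor response genes were where Y27632 stood highest above blebbistatin. Of 48 genes of the immediate early and ERK feedback list, 37 were higher with Y27632 and 6 lower, with a median difference of 0.94. Against DMSO the list median was 0.93 with Y27632 and 0.20 with blebbistatin. Errfi1 changed by 2.99 with Y27632 and 0.54 with blebbistatin, a difference of 2.45 (adjusted p = 1.04e-09 in edgeR). Ereg stood at 1.77 and -0.15, a difference of 1.92, and Nr4a1 at 2.83 and 0.23, a difference of 2.60. Egr1 was nearer, at 2.50 and 1.78, a difference of 0.71. Cxcl1 stood at 2.46 and -0.14 (difference 2.59), and Ccl2 at 0.59 and -1.02 (difference 1.62).

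Sterol, fatty acid, Yap and Taz, contractile and ATF4 genes had list medians below 0 with both inhibitors, and in each of these 5 lists more genes were called higher with Y27632 than lower. This did not hold for every such list: among cell cycle control genes 3 were higher and 7 lower, and in glycolysis and hypoxia 12 were higher and 16 lower. In the sterol list 24 of 26 genes were higher with Y27632 than with blebbistatin and 0 lower, and the medians against DMSO were -0.51 and -1.03. In the fatty acid list 15 of 18 were higher and 2 lower, with medians of -0.29 and -0.72. Among Yap and Taz genes 18 of 30 were higher and 7 lower, with medians of -0.19 and -0.50. Ctgf stood at -0.12 with Y27632 and -1.59 with blebbistatin (difference 1.47, adjusted p = 3.69e-08 in edgeR), and Cyr61 at -0.14 and -2.0 (difference 1.87). The contractile list was divided, with 20 of 41 genes higher and 10 lower (medians -0.24 and -0.46). Myl9 stood at -1.51 and -1.37, and its difference of -0.14 was not called (adjusted p = 0.109 in edgeR), nor was that of Myh9, at -0.45 and -0.46. Rock2 stood at -0.37 and -1.79, a difference of 1.41. In the ATF4 list 20 of 29 were higher with Y27632 and 5 lower, with medians of -0.52 and -0.68, and Trib3 was not called between the inhibitors (difference 0.12, adjusted p = 0.184 in edgeR).

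**Figure D4:**
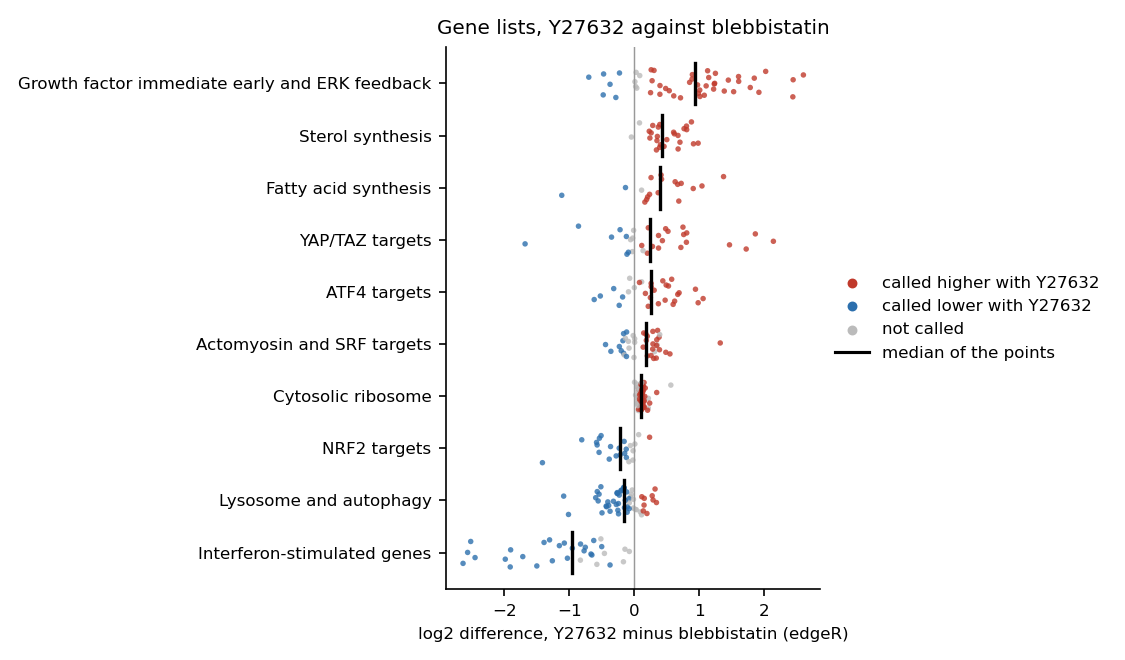
Log2 difference of each gene, Y27632 minus blebbistatin (horizontal axis, edgeR), for 10 gene lists (vertical axis), with the median of the points as a black bar. Red genes were called higher with Y27632, blue genes lower and grey genes not called. The median lies at 0.94 for the immediate early and ERK feedback list and at -0.95 for the interferon list.

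In other lists more genes were lower with Y27632 than with blebbistatin. Of 31 interferon-stimulated genes 24 were lower with Y27632 and 0 higher, and the medians against DMSO were -0.05 and 0.76. Of 35 lysosomal genes 28 were lower and 0 higher, with medians of 0.18 and 0.38; Gla stood at 0.32 and 1.40. Of 23 NRF2 targets 16 were lower and 1 higher, and Hmox1 stood at -0.09 and 1.32. Of 29 metalloproteinase genes 14 were lower and 7 higher, with a median difference of -0.05. Of the steepest, Mmp13 stood at 2.62 and 3.83 (difference -1.21), and Adamts15 at 1.67 and 3.54 (difference -1.87, adjusted p = 3.20e-10 in edgeR). Ribosomal protein genes, by contrast, were higher with Y27632 in 58 of 77 cases and lower in 0, with medians of 0.12 and 0.02.

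Some genes moved in opposite directions from DMSO. Dkk2 changed by 0.73 with Y27632 and -0.83 with blebbistatin, a difference of 1.57 (adjusted p = 2.02e-13 in edgeR). Adamts3, a propeptidase of collagen, stood at 0.48 and -1.11 (difference 1.59), Rhob at 0.59 and -0.80 (difference 1.39), Epha2, an ephrin receptor, at 0.58 and -0.91 (difference 1.49) and Kcnj2 at 0.71 and -0.56 (difference 1.27). Acacb went the other way, at -0.53 and 0.58 (difference -1.11). Pdgfra and Igfbp5 stood at 0.59 and 1.21 with Y27632 and at 0.59 and 1.15 with blebbistatin, and were not called between the inhibitors.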

How the data were processed

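The deposited RNA values are a signal: counts per gene that the authors divided by 1 size factor per library, as worked out from the values, of which 100% were whole multiples of 1 step (tolerance 0.01 reads). HISAT2, featureCounts and DESeq2 for RNA, DiffBind and HOMER for ATAC, and the build mm10 are named in the submitters' processing notes. Strand use, the counting of shared reads and the versions are not given in the sources used here. The log2 fold changes and adjusted p-values of the authors' deposited tables, and the log2 means, folds and FDR of the ATAC list, are the authors' own, per the file headers. Of the 4109 genes past 0.05 in the authors' deposited RNA table, 4101 were called here, all 4101 in the same direction.

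Genes whose normalised counts averaged 10 or more in the 6 libraries were tested with limma 3.58.1 (R 4.3.3, trend) on log2(normalised count + 1), which understates the change of low genes, with Benjamini-Hochberg adjustment over all genes and calls under 0.05. Y27632 and blebbistatin were compared with edgeR 4.0.16 (quasi-likelihood, TMM) on recovered reads of 9 libraries, since the tables were scaled separately. The fits were run on simulated counts with far fewer changed genes than were called here, all with a mean of at least 100. Detection of changes in genes below that mean was thus not tested. Alternatives used DESeq2 1.42.0, edgeR, other scalings, pseudocounts and filters, a replicate block and the omission of each library.

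Gene lists and the comparison were chosen with earlier results of these data known. Named are up to 4 called members per list and role with the largest change and a mean of at least 100, the 15 highest and 15 lowest called genes without overlap, some fixed regulators, and exceptions within a list. Genes named for an ATAC site, a promoter match or as cell type markers were chosen after their values were seen. Spreadsheet dates had replaced 25 gene names, 19 of them tested. No mitochondrially encoded gene was analysed here. A few genes that the naming rule picks are not reported here.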

Additional observations from a re-analysis of the deposited data

How the results depend on the processing

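The count of 5328 genes called between Y27632 and DMSO was 3479 (1726 higher, 1753 lower) at an adjusted p under 0.01. It stayed within 1.5 times under the other settings tried, from 4268 with DESeq2 to 5363 with total-count scaling, and leaving out 1 library gave 4304 (without Y27632 replicate 3) to 4839 (without DMSO replicate 3). The edgeR count was 5354. Same-numbered libraries did not deviate together (correlations of -0.09, -0.00 and -0.02). Whether the numbers pair the samples cannot be told from these values, since libraries of a common origin need not deviate together. With the replicate number as a block limma called 4633 genes, and edgeR with that block, chosen after seeing the data, called 4634. Between Y27632 and blebbistatin 7935 genes became 7068 with DESeq2, 8207 without a filter, 7700 with the replicate block and 7155 to 7421 with 1 library left out. The log2 change turned sign with 1 library left out for genes that were never called: Rock1 (-0.041 to 0.011), Col1a2 (-0.0001 to 0.054) and Mkl2 (-0.093 to 0.018). Calls lost without 1 library stand beside the genes concerned. With 3 libraries a group the median SE was 0.06, which limits the detection of smaller changes.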
